A study of Sus scrofa with 189 samples.

Results

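The SLC25 family comprises the carriers of the inner mitochondrial membrane, a few relatives of which sit in the outer membrane or in peroxisomes. It was followed here in longissimus dorsi muscle of pigs. The family was taken as every gene whose symbol in the deposited table begins with SLC25A, apart from SLC25A20, which was left out. That gave 34 of the 12651 genes of the table, or 52 of its 18114 transcripts. A gene's level is the sum of the FPKM of its listed transcripts, where FPKM are fragments scaled to transcript length and to the size of the library. Of the 34 genes, 30 reached a mean of 0.5 FPKM over all animals and entered the tests. SLC25A47, SLC25A14, SLC25A35 and SLC25A21 did not and are described by their levels only.

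Carriers of this family share a fold of repeated pairs of membrane helices, and most of them exchange one solute for another across the inner membrane. Through them ADP and phosphate reach the ATP synthase, ATP leaves the matrix, and reducing power, amino acids, nucleotides and cofactors pass between matrix and cytosol. Skeletal muscle, whose contraction draws on mitochondrial ATP, is known for abundant ADP/ATP and phosphate carriers. Most carriers are made in the cytosol and are brought to the inner membrane by a dedicated import route.

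The animals were 189 pigs of a first-generation cross of Duroc boars with Luchuan sows, raised on one farm and slaughtered at about 210 days. No genotype, sex or treatment that separates them is recorded in the labels used here. Intramuscular fat content (IMF, unit not stated) is the only trait given. The titles of 21 animals carry the unexplained mark "re-analyzed". Of these, 10 had high IMF (4.83 to 6.84, median 6.18) and 11 had low IMF (0.77 to 2.33, median 1.72). The titles of the other 168 carry no such mark, and IMF was recorded for 143 of them (1.19 to 5.61, median 3.29) and not for 25. The digits of each title begin with 16 in 120 animals and with 15 in 69. What these digits stand for is not stated, and they are called title digits here. A longer stretch of 9 title digits is shared by 2 or more animals in 48 cases that hold 146 animals, and it is called the title code.

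Each library was a muscle library by its markers, since 7 skeletal muscle genes summed to between 28522 and 116398 FPKM of a library total of 364110 to 465105 FPKM. The table holds no read counts, so the depth behind each value is unknown. Library 39, an unmarked animal with title digits 15 and an IMF of 3.05, stood apart. Its median correlation with the other libraries was the lowest (0.889, against a median of 0.944 over libraries), and its 6 adipocyte markers summed to 2994 FPKM, where the next highest library had 430.8 FPKM. It was also the highest of all libraries for 10 of the 34 SLC25A genes. Values without it are given where leaving it out changed a call or lowered a highest value by a wide margin.

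The carriers of the ATP cycle made up most of the family's RNA. The 7 genes of ADP/ATP and phosphate exchange held 79.4% of the mean SLC25A sum, and the 3 most abundant genes alone held 75.5%. The whole family summed to between 619.2 and 1262 FPKM (median 892.7), which was 0.153% to 0.293% of a library's summed FPKM.

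**Figure D1:**
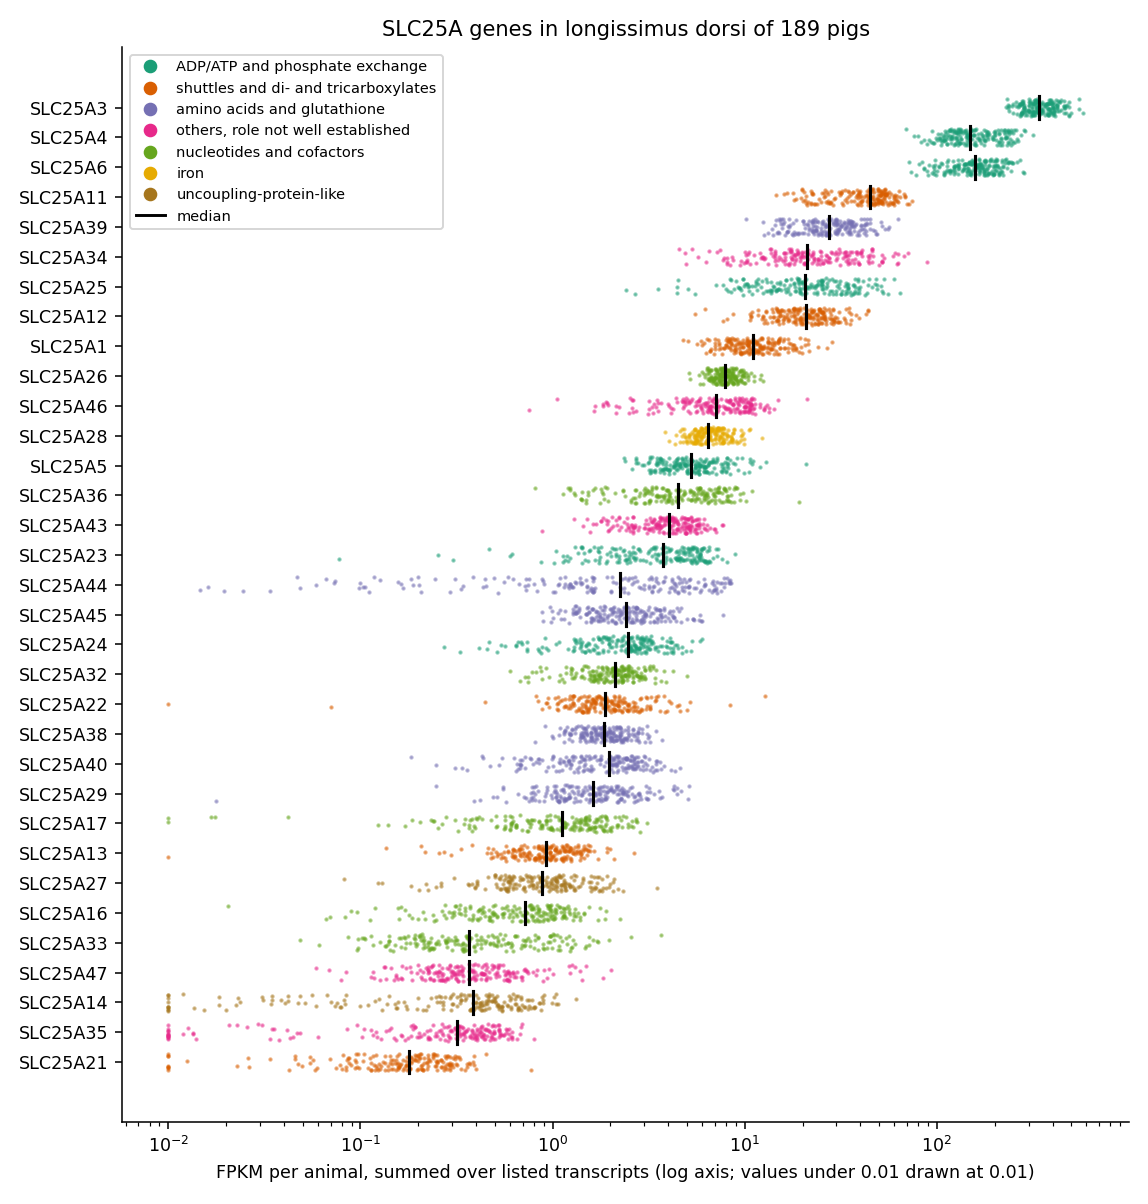
Level of 33 of the 34 SLC25A genes in each of 189 animals, in FPKM on a log axis (1 dot per animal, coloured by the role of the carrier, black bar for the median), ordered by mean. SLC25A3, SLC25A4 and SLC25A6 stand above all others, and the levels of SLC25A44 spread from 0.015 to 8.49 FPKM.

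SLC25A3, the phosphate carrier, was the most abundant member and had 227.7 FPKM in the lowest animal, a median of 337.9 FPKM and 577.8 FPKM in the highest. SLC25A4, which encodes the ADP/ATP translocase typical of heart and skeletal muscle, had 68.8, 147.8 and 315.3 FPKM as its lowest, median and highest values. SLC25A6, which encodes another ADP/ATP translocase, had 71.4, 158.5 and 283.1 FPKM. The ranges of SLC25A4 and SLC25A6 lay over each other almost entirely, and their means (161.0 and 160.9 FPKM) differed by far less than their SDs of 50.6 and 43.9 FPKM (n = 189 each). SLC25A5, the translocase gene known for its expression in dividing cells, stood far lower at 2.35 to 20.9 FPKM (median 5.23), with 13.0 FPKM as the highest without library 39.

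Within the 3 ADP/ATP translocases, the balance of SLC25A4 and SLC25A6 differed from animal to animal. SLC25A4 took 24.5% to 70.0% of their summed FPKM (median 49.8%), SLC25A6 took 28.5% to 73.4% (median 48.1%), and SLC25A5 took 0.557% to 5.49% (median 1.64%). SLC25A4 exceeded SLC25A6 in 99 of 189 animals. The pair showed no shared course over animals (Pearson's r = -0.042 with a permutation p of 0.569 and Spearman's rho = -0.099 with a permutation p of 0.177, on log2(FPKM + 1), n = 189). The proteins of the 3 genes are close relatives, and reads that match more than one of them could have been assigned to either.

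The other carriers of ATP exchange move ATP-Mg against phosphate and are regulated by calcium. SLC25A25 had 2.42 to 64.6 FPKM (median 20.6), SLC25A23 had 0.077 to 8.85 FPKM (median 3.75), and SLC25A24 had 0.272 to 5.97 FPKM (median 2.46). SLC25A25 thus had the highest median of the trio, and its highest level was 26.7 times its lowest.

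The carriers of the shuttles and of di- and tricarboxylates held 8.85% of the mean family sum. SLC25A11, the oxoglutarate/malate carrier of the malate-aspartate shuttle, led them with 14.6 to 74.1 FPKM (median 44.6). Its partner in that shuttle, the aspartate/glutamate carrier, is encoded by a pair of genes, of which SLC25A12 had 5.53 to 43.8 FPKM (median 20.8) and SLC25A13, the form typical of liver, had 0 to 2.64 FPKM (median 0.924). SLC25A1, which exports citrate, had 4.76 to 28.3 FPKM (median 11.0). SLC25A22, a glutamate carrier, stood at a median of 1.87 FPKM, and SLC25A21, a carrier of oxodicarboxylates, at a median of 0.178 FPKM with 7 animals at 0.

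Amino acid and glutathione carriers held 4.47% of the mean family sum, most of it from 1 gene. SLC25A39, which brings glutathione into the matrix, had 10.2 to 62.5 FPKM (median 27.5), while its close relative SLC25A40 had 0.182 to 4.58 FPKM (median 1.96). SLC25A44, which carries branched-chain amino acids, had 0.015 to 8.49 FPKM (median 2.26). SLC25A45 had a median of 2.40 FPKM, SLC25A38, the glycine carrier of haem synthesis, 1.84 FPKM, and SLC25A29, a carrier of basic amino acids, 1.63 FPKM.

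The carriers of nucleotides and cofactors were low, at 2.15% of the mean family sum. SLC25A26, which imports S-adenosylmethionine, led them with 5.11 to 12.4 FPKM (median 7.89). SLC25A36, a pyrimidine nucleotide carrier, had 0.812 to 19.3 FPKM (median 4.51), with its highest value in library 39 and 10.9 FPKM as the highest of the others. Others were SLC25A32 (folate and FAD), SLC25A17 (coenzyme A in peroxisomes), SLC25A16 (linked to coenzyme A) and SLC25A33 (pyrimidine nucleotides), with medians between 0.367 and 2.11 FPKM.

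Iron import was represented by SLC25A28, known as mitoferrin-2, at 3.86 to 12.2 FPKM (median 6.46). The relatives of the uncoupling proteins were low, with a median of 0.878 FPKM for SLC25A27 and 0.385 FPKM for SLC25A14. Uncoupling proteins under other names, outside the choice by symbol, had means of 29.8 FPKM (UCP3) and 3.45 FPKM (UCP2). Among members whose transport role is not well established, SLC25A34 had 4.54 to 88.9 FPKM (median 21.2) and ranked sixth in the family by mean. SLC25A46, a protein of the outer membrane that takes part in mitochondrial dynamics, had 0.754 to 21.2 FPKM (median 7.10), SLC25A43 had a median of 4.03 FPKM, and SLC25A47 and SLC25A35 had medians of 0.366 and 0.319 FPKM. By mean FPKM the 10 most abundant members were SLC25A3, SLC25A4, SLC25A6, SLC25A11, SLC25A39, SLC25A34, SLC25A25, SLC25A12, SLC25A1 and SLC25A26, and they held 93.6% of the family sum.

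The members lie on many chromosomes of the build Sscrofa11.1. SLC25A3 is on the minus strand of chromosome 5 from 85284316 to 85292451, SLC25A4 on the plus strand of chromosome 15 from 46193493 to 46200987, and SLC25A6 on an unplaced scaffold. SLC25A5 (97919295 to 97922310) and SLC25A43 (97868611 to 97906760) are neighbours on the plus strand of chromosome X, and SLC25A14 is on the same chromosome. SLC25A29 (121174889 to 121192328) and SLC25A47 (121192450 to 121210374) are neighbours on opposite strands of chromosome 7. SLC25A39 overlaps RUNDC3A, SLC25A35 overlaps RANGRF, SLC25A21 overlaps PAX9 and SLC25A11 overlaps RNF167, each on the opposite strand. SLC25A11 also overlaps PFN1, SLC25A34 overlaps PLEKHM2, SLC25A3 overlaps SNORA53 and SLC25A38 overlaps a gene without a symbol, each on the same strand. Whether counting used strand is not given in the sources used here, and reads of such pairs could have gone to either gene. Named in a reference table but not in the deposited one, SLC25A10 (mean 7.30 FPKM) and SLC25A15 (mean 0.445 FPKM) fell outside the choice by symbol.

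Variation between animals was measured by the SD of log2(FPKM + 1), in which the added 1 narrows the spread of genes of low FPKM. The order of genes by this SD therefore depends on their level too. The median SD over the 30 tested members was 0.441, beside 0.374 over all 10717 genes tested. The most variable members were SLC25A44 (SD 0.967), SLC25A25 (0.815), SLC25A34 (0.811), SLC25A46 (0.634) and SLC25A23 (0.634). SLC25A44 varied more than 98.2% of all genes tested. Among the least variable were SLC25A26 (0.193) and SLC25A28 (0.251), and SLC25A26 varied more than 1.90% of all genes tested. The abundant SLC25A3 was also steady, with an SD of 0.271 and a highest level 2.54 times its lowest. Leaving out library 39 moved these SDs by less than 0.01.

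Title codes took a small part of the variation. The intraclass correlation, the share of variance that lies between title codes, had a median of 0.059 over the 30 members (-0.052 to 0.224) and of 0.056 over all genes tested. It was highest for SLC25A3 (0.224), and among the next were SLC25A45 (0.188), SLC25A4 (0.184) and SLC25A34 (0.175). In a moderated F test over the 48 codes, with the mark as a covariate and 146 animals, 0 of 30 members passed an adjusted p of 0.05 (limma, Benjamini-Hochberg over all tested genes), beside 1.82% of all genes. At an unadjusted p under 0.05 there were 5 of 30 members, among them the 4 just named, beside 18.8% of all genes. SLC25A3 came nearest, with an adjusted p of 0.102.

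No SLC25A gene passed the test against intramuscular fat. In the 164 animals with IMF, the slope of log2(FPKM + 1) on IMF with the mark as a covariate called 0 of 30 members (limma, adjusted p), and 9 of 10717 genes, or 0.084%. Without library 39 it called 0 members and 28 of all genes. At an unadjusted p under 0.05 there were 3 of 30 members, beside 4.92% of all genes. The slopes were positive for 24 of 30 members (80%), beside 74.6% of all genes, with a median of 0.020 per unit of IMF in the family and 0.014 over all genes. In the same fit 3 of 6 adipocyte markers were called, ADIPOQ (slope 0.29), PLIN1 (0.26) and LEP (0.15).

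Among the members of smallest p with positive slopes were SLC25A13 and SLC25A34. For SLC25A13 the slope was 0.05 ± 0.019 (SE) per unit of IMF (adjusted p = 0.862 with limma), and for SLC25A34 it was 0.12 ± 0.057 (adjusted p = 0.958 with limma). SLC25A34 had a median of 22.4 FPKM (9.44 to 88.9) in the 41 animals of highest IMF (the fattest), against 21.3 FPKM (4.54 to 62.8) in the 41 of lowest IMF (the leanest). The ranges of the fattest and leanest animals lay over each other. The negative slopes of smallest p were those of SLC25A38 (-0.028 ± 0.017), SLC25A6 (-0.040 ± 0.028) and SLC25A44 (-0.027 ± 0.067), each with an adjusted p of 0.961 or more in limma. The sign for SLC25A44 turned when the 4 most extreme IMF values were left out.

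The intervals of the most abundant carriers held 0. For SLC25A3 the slope was 0.02 per unit of IMF (95% interval -0.019 to 0.056), with a median of 371.8 FPKM (235.2 to 546.7) in the 41 fattest animals, against 333.7 FPKM (250.2 to 577.8) in the 41 leanest. For SLC25A4 it was -0.011 (-0.068 to 0.047), with 157.1 FPKM (82.2 to 284.1) in the fattest, against 171.1 FPKM (93.8 to 315.3) in the leanest. SLC25A6 had 156.5 FPKM (71.4 to 228.3) in the fattest and 157.4 FPKM (73.5 to 281.3) in the leanest, and its slope interval was -0.095 to 0.014. The sets of 41 animals hold re-analyzed and unmarked animals alike and are given as a description.

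Within the 143 unmarked libraries, 0 of 30 members were called (limma), beside 0.0% of all genes, and 0 members and 5 of all genes without library 39. At an unadjusted p under 0.05 there were 3 of 30, beside 2.52% of all genes. They were SLC25A34 (slope 0.17 ± 0.079), SLC25A43 (0.08 ± 0.040) and SLC25A38 (-0.050 ± 0.025). The next by p among negative slopes were SLC25A6 (-0.059 ± 0.040) and SLC25A23 (-0.062 ± 0.060). The difference between the slopes of re-analyzed and unmarked libraries, tested as an interaction, called 0 of 30 members, beside 0.0% of all genes. At the unadjusted p there were 0 members, beside 1.64% of all genes.

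The 21 re-analyzed animals gave a contrast of high with low IMF. Again 0 of 30 members were called (limma), beside 0.084% of all genes. At an unadjusted p under 0.05 there were 0 members, beside 4.43% of all genes. SLC25A3 had 314.3, 389.4 and 460.4 FPKM as lowest, median and highest of the 10 high-IMF animals, against 297.5, 333.7 and 392.4 FPKM in the 11 low-IMF animals, a log2 difference of 0.16 ± 0.083 (SE) with an unadjusted p of 0.0634. The groups overlapped over most of their range. SLC25A13 differed by 0.22 ± 0.11 and SLC25A46 by 0.27 ± 0.17. On the negative side were SLC25A16 (-0.13 ± 0.11), SLC25A4 (-0.091 ± 0.13) and SLC25A11 (-0.077 ± 0.12). The adjusted p was 0.986 for each of these 6 genes in limma.

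**Figure D2:**
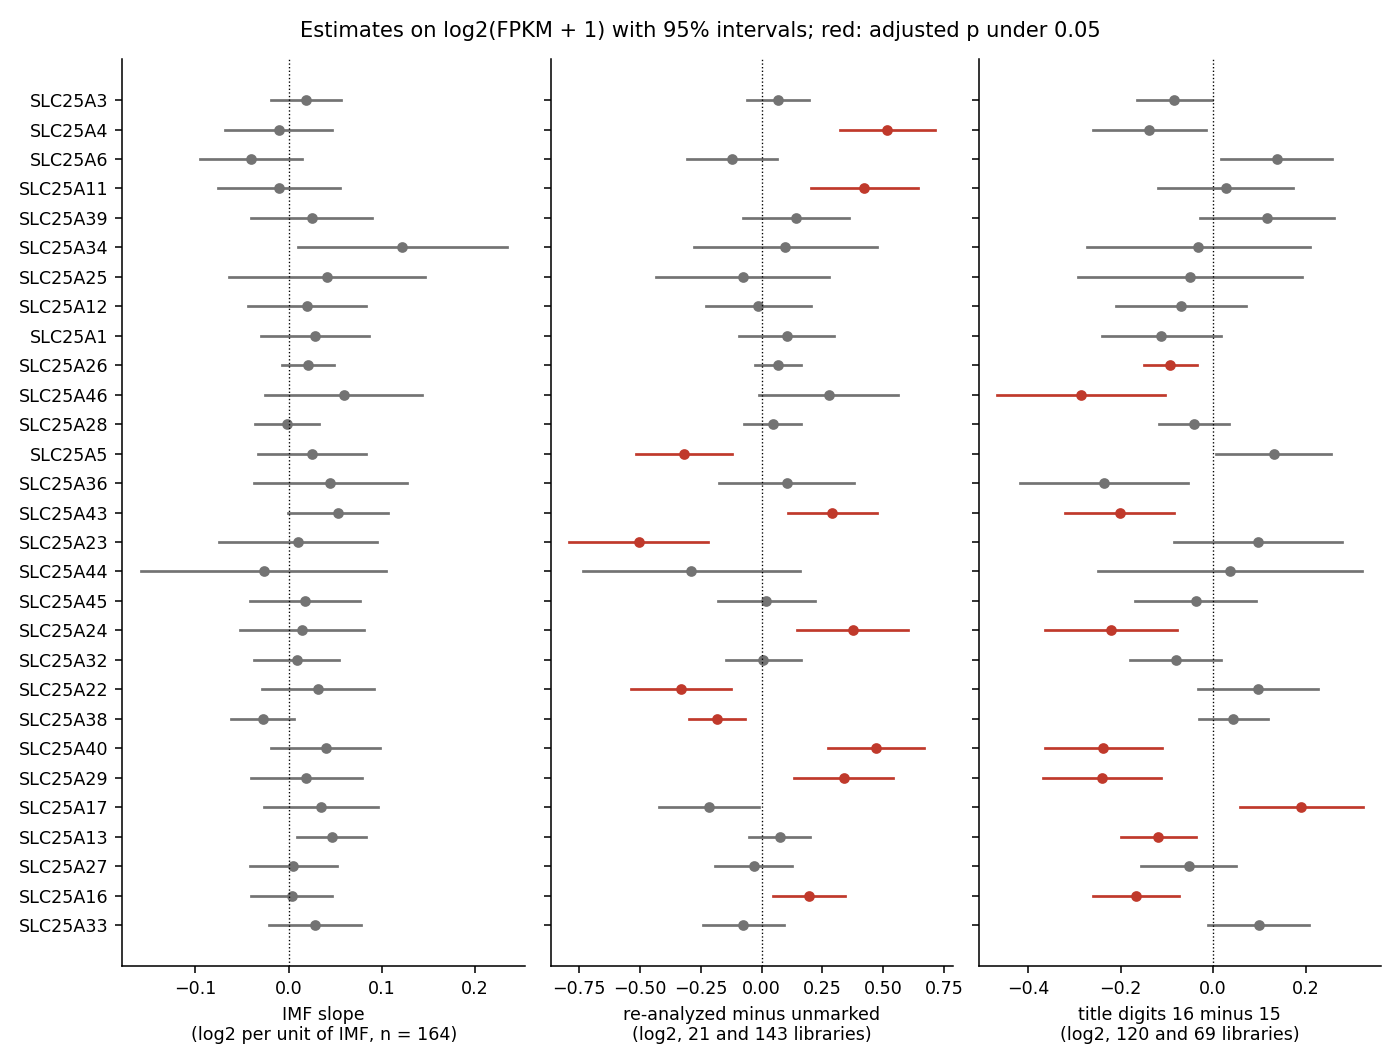
Estimates for 29 of the 30 tested SLC25A genes on log2(FPKM + 1), with 95% intervals, for the IMF slope (left), re-analyzed minus unmarked libraries (middle) and title digits 16 minus 15 (right). Red marks an adjusted p under 0.05, which 0, 11 and 9 of the genes reached.

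The re-analyzed libraries differed from the unmarked ones in several carriers. With IMF as a covariate, 11 of 30 members were called (limma, adjusted p), or 36.7%, beside 41.1% of all genes. Of these, 7 were higher and 4 lower in re-analyzed libraries, beside 18.3% of all genes called higher and 22.7% called lower. The share of members called was thus near that of all genes. What the mark stands for is not stated, and it cannot be told apart from anything else that differs between these sets of libraries.

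**Figure D3:**
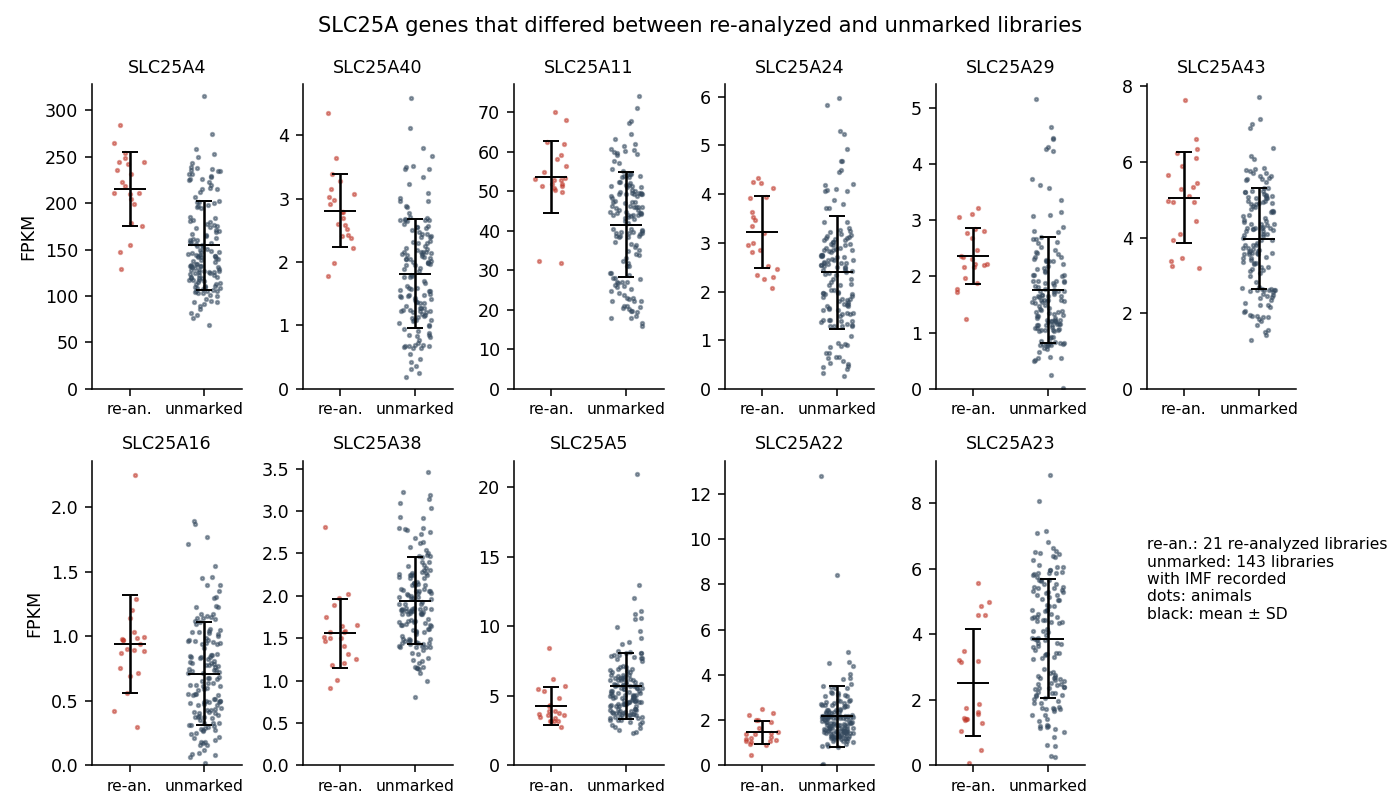
FPKM of the 11 SLC25A genes called between the 21 re-analyzed libraries (red, left in each panel) and the 143 unmarked libraries with IMF (dark, right), 1 dot per animal, with the mean and SD in black. The upper row and SLC25A16 are higher in the re-analyzed libraries, SLC25A38, SLC25A5, SLC25A22 and SLC25A23 are lower, and the ranges overlap in every panel.

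Among carriers of ADP, ATP and phosphate the calls went both ways. SLC25A4 had 129.1, 218.9 and 284.1 FPKM as lowest, median and highest of the re-analyzed libraries, against 68.8, 142.9 and 315.3 FPKM in the unmarked libraries. Its log2 difference was 0.52 ± 0.099 (SE; adjusted p = 1.27e-05, limma), the smallest adjusted p of the family. SLC25A24 had a median of 3.20 FPKM (2.07 to 4.34) in re-analyzed libraries, against 2.44 FPKM (0.272 to 5.97) in unmarked libraries, and differed by 0.37. The re-analyzed values of both genes lay within the range of the unmarked ones, and none was as low as the lowest unmarked values. SLC25A23 had a median of 1.75 FPKM (0.077 to 5.56) in re-analyzed libraries, against 3.88 FPKM (0.253 to 8.85) in unmarked libraries, the strongest fall of the family at -0.51 ± 0.15 (adjusted p = 0.0034, limma). SLC25A5 had a median of 3.78 FPKM (2.73 to 8.41) in re-analyzed libraries, against 5.23 FPKM (2.35 to 20.9, the highest being library 39) in unmarked libraries, and differed by -0.32.

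The balance of the translocases moved with these values. SLC25A4 held 59.0% ± 7.83 of the 3 translocases' summed FPKM in the 21 re-analyzed libraries, against 48.0% ± 10.2 (SD) in the 143 unmarked libraries with IMF. SLC25A4 exceeded SLC25A6 in 18 of 21 re-analyzed animals, against 71 of 143 unmarked animals. Within the mark, it did so in 7 of 10 animals of high IMF, against 11 of 11 of low IMF. SLC25A6 itself was not called.

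Of the shuttle and amino acid carriers, SLC25A11 had a median of 52.8 FPKM (31.8 to 70.1) in re-analyzed libraries, against 44.0 FPKM (16.0 to 74.1) in unmarked libraries, a difference of 0.42 ± 0.11 (adjusted p = 0.0015, limma). SLC25A22 had 1.37 FPKM (0.444 to 2.49) in re-analyzed libraries, against 1.91 FPKM (0.002 to 12.8) in unmarked libraries, a difference of -0.33. The 12.8 FPKM is that of library 39, and the highest of the other libraries had 8.42 FPKM. SLC25A12, the partner of SLC25A11 in the shuttle, was not called. SLC25A40 had a median of 2.78 FPKM (1.78 to 4.34) in re-analyzed libraries, against 1.77 FPKM (0.182 to 4.58) in unmarked libraries, and differed by 0.47 ± 0.10. SLC25A29 had 2.32 FPKM (1.24 to 3.22) in re-analyzed libraries, against 1.57 FPKM (0.018 to 5.15) in unmarked libraries, and differed by 0.34. SLC25A38 had 1.52 FPKM (0.912 to 2.81) in re-analyzed libraries, against 1.86 FPKM (0.809 to 3.46) in unmarked libraries, and differed by -0.18. For all 3 genes the re-analyzed values lay within the range of the unmarked ones. The remaining calls were SLC25A43 (0.29) and SLC25A16 (0.19), both higher in re-analyzed libraries.

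Other mitochondrial genes differed as well, in a comparison that called 18.3% of all genes higher and 22.7% lower. Of 10 measured genes of the route that imports carriers, 6 were higher and 1 lower in re-analyzed libraries, with TIMM9 at 0.51, TOMM70 at 0.50 and TIMM29 at 0.39, and AGK at -0.18. Of 9 genes of the outer membrane and partners, 4 were higher, MICU2 (0.47), VDAC3 (0.44), MPC2 (0.36) and MPC1 (0.26), and mitochondrial creatine kinase CKMT2 was lower (-0.68). Of the 4 enzymes of the malate-aspartate shuttle, MDH1 (-0.30) and GOT2 (-0.34) were lower and 0 were higher. Of 6 regulators of mitochondrial biogenesis, TFAM was higher (0.51) and PPARA lower (-0.46). None of MTCH1, UCP2 and UCP3, relatives of the family under other names, was called. With IMF, 0 of the genes of these 5 lists were called.

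Markers of other cell types moved with the mark. In re-analyzed libraries 5 of 6 adipocyte, 5 of 5 fibroblast, 3 of 5 endothelial, 5 of 5 macrophage, 2 of 2 red blood cell and 3 of 4 smooth muscle markers were lower, and 0 of these were higher. Over all genes 22.7% were called lower and 18.3% higher. Of 7 skeletal muscle markers 1 was higher and 2 lower, of 6 slow fibre genes 0 and 1, and of 5 fast fibre genes 1 and 1. The summed adipocyte markers ranged from 52.0 to 315.1 FPKM in re-analyzed libraries, against 68.7 to 2994 FPKM in unmarked libraries, where the 2994 FPKM is that of library 39 and the next highest library had 430.8 FPKM. The macrophage markers ranged from 4.83 to 28.2 FPKM in re-analyzed libraries, against 8.56 to 71.0 FPKM in unmarked libraries, and the fibroblast markers from 181.0 to 1120 FPKM in re-analyzed libraries, against 150.9 to 2201 FPKM in unmarked libraries, with 1465 FPKM as the highest without library 39. CD163 and ALAS2 were at 0 in some animals, the other listed markers in none. The difference between long and short transcripts of a library, taken between medians of gene-centred log2 levels, also moved. Its median was -0.147 (-0.414 to 0.148) in re-analyzed libraries, against 0.037 (-0.315 to 0.287) in unmarked libraries. Their part in the results for the carriers was not tested beyond a fit with the length difference as a covariate, which called 17 members (11 higher, 6 lower). In bulk muscle, fewer cells of a type and less RNA per cell cannot be told apart.

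The direction of the calls over all genes depended on scaling. The split of 1964 genes higher and 2436 lower became 2551 and 2145 when libraries were shifted to a common median, and 2308 and 2267 under quantile normalization. For the members the split of 7 higher and 4 lower became 8 and 3 under the median shift and 7 and 3 under quantile normalization. SLC25A38 lost its call under both scalings, with its difference at -0.16 and -0.15. SLC25A22 lost its call when only the most abundant transcript was used, and SLC25A16 lost its call with title digits as a covariate.

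Title digits also went with differences in carriers. Between 120 animals with title digits 16 and 69 with title digits 15, with the mark as a covariate, 9 of 30 members were called (limma, adjusted p), or 30%, beside 13.9% of all genes. Of these, 1 was higher and 8 lower with title digits 16, beside 2.02% of all genes called higher and 11.9% lower. All 164 animals of the comparison by mark enter this one too. Of the 9, SLC25A16, SLC25A24, SLC25A29, SLC25A40 and SLC25A43 were also called for the mark, all 5 with the opposite sign. The mark called 41.1% of all genes, and the share of all genes called in both comparisons is not given. Re-analyzed animals were 11 of the 69 with title digits 15 and 10 of the 120 with title digits 16. The fit for the mark held no term for title digits, so the signs in both comparisons are not independent. The called SLC25A16, SLC25A24, SLC25A40, SLC25A43 and SLC25A46 are among 8 genes that varied together over animals, as given below. The calls are therefore not independent of each other, and the 30% counts such genes singly.

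SLC25A46 had 0.754, 6.63 and 13.4 FPKM as lowest, median and highest with title digits 16, against 1.94, 7.94 and 21.2 FPKM with title digits 15, the strongest fall at -0.29 ± 0.093 (SE; adjusted p = 0.0292, limma). SLC25A29 had a median of 1.36 FPKM (0.018 to 5.06) with digits 16, against 2.02 FPKM (0.554 to 5.15) with digits 15, and differed by -0.24 ± 0.065. SLC25A40 had 1.59 FPKM (0.182 to 4.34) with digits 16, against 2.16 FPKM (0.677 to 4.58) with digits 15, and differed by -0.24 ± 0.065. In each of these the ranges overlapped, and the lowest animals of all had title digits 16. SLC25A24 (-0.22), SLC25A43 (-0.20) and SLC25A16 (-0.17) were lower as well. The other calls were SLC25A13 (-0.12) and SLC25A26 (-0.093) on the lower side. SLC25A17, a peroxisomal carrier, was higher, with a median of 1.27 FPKM (0.017 to 3.10) with digits 16, against 0.922 FPKM (0.0002 to 2.71) with digits 15, a difference of 0.19 ± 0.068 (adjusted p = 0.0445, limma).

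Of the major carriers none was called by title digits. SLC25A6 differed by 0.14 ± 0.061 and SLC25A4 by -0.14 ± 0.062 (adjusted p = 0.107 and 0.110, limma), and SLC25A4 exceeded SLC25A6 in 50 of 120 animals with digits 16, against 49 of 69 with digits 15. Without library 39 the members called were 7, with 0 higher and 7 lower, and the calls of SLC25A17 (0.18, adjusted p = 0.0668 in limma) and SLC25A13 (-0.11, adjusted p = 0.0661 in limma) were lost. The number of all genes called by title digits without library 39 is not given, so this loss cannot be set against all genes. Scaling changed the split here too. Over all genes, 217 higher and 1276 lower became 875 and 675 under the median shift and 673 and 795 under quantile normalization. Over the members, 1 higher and 8 lower became 3 and 6 under the median shift and 2 and 6 under quantile normalization, where SLC25A5 joined the higher side in both and SLC25A6 in the first, while SLC25A26 and SLC25A13 lost their calls in both. With the difference between long and short transcripts as a covariate, 5 members were called, all lower. SLC25A46 (-0.20, adjusted p = 0.0770 in limma), SLC25A24 (-0.16, 0.0850), SLC25A17 and SLC25A13 lost their calls there. The calls of SLC25A17 and SLC25A13 were also lost with a pseudocount of 0.1. That difference had a median of -0.002 with digits 16, against 0.053 with digits 15. Of the macrophage markers 4 of 5 were higher with digits 16, at 9.13 to 71.0 FPKM in sum, against 4.83 to 64.4 FPKM with digits 15. Of the other cell type markers, ACTA1 of 7 skeletal muscle (0.24) and CNN1 of 4 smooth muscle markers (0.31) were higher with digits 16, and VWF of 5 endothelial markers (-0.21) was lower. The sums ranged from 28522 to 116398 FPKM with digits 16, against 34546 to 101333 FPKM with digits 15, for skeletal muscle, from 58.6 to 405.9 FPKM, against 58.4 to 476.8 FPKM, for smooth muscle, and from 29.5 to 89.6 FPKM, against 27.6 to 101.8 FPKM, for endothelium. Of the other mitochondrial lists, 3 of 10 genes of the import route were lower with digits 16, TOMM70, TIMM29 and TIMM9. So were 2 of 9 genes of the outer membrane and partners, VDAC3 and MICU2, and TFAM of 6 regulators of biogenesis. In these lists 0 genes were higher. Over all genes 2.02% were called higher and 11.9% lower with digits 16. The part of these markers and lists in the results for the carriers was not tested.

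Several carriers varied together over animals. Of 561 pairs among the 34 genes, 17 had a Pearson's r over 0.7 on log2(FPKM + 1), and 15 had an r under -0.4, around a median of 0.057. All 17 lay among 8 genes, SLC25A16, SLC25A24, SLC25A27, SLC25A32, SLC25A36, SLC25A40, SLC25A43 and SLC25A46, which come from 5 of the 7 role groups. Permutation p-values over 100000 draws were 1e-05 for each pair named below, the smallest they can give, and 5e-05 after Benjamini-Hochberg adjustment over the 561 pairs. Values within a library share its depth and composition, which these p-values do not take into account.

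The highest r was that of SLC25A46 with the pyrimidine carrier SLC25A36, at 0.869 (rho = 0.864, n = 189). SLC25A46 was also close to SLC25A40 (r = 0.865, rho = 0.861), SLC25A24 (r = 0.819, rho = 0.758) and SLC25A43 (r = 0.803, rho = 0.726), and SLC25A43 to SLC25A40 (r = 0.817, rho = 0.778). Leaving out the 2 animals farthest from the median of the first gene left these r between 0.793 and 0.867. They were 0.808 to 0.885 in the 168 unmarked animals. In the 21 re-analyzed animals they reached 0.839 for SLC25A46 with SLC25A40 but only 0.508 for SLC25A46 with SLC25A36, and -0.054 for SLC25A46 with SLC25A24. They were 0.842 to 0.886 with title digits 16 and 0.606 to 0.822 with title digits 15.

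The lowest r joined the translocase SLC25A6 to members of the same 8 genes. It was -0.590 with SLC25A46 (rho = -0.640), -0.584 with SLC25A40 (rho = -0.605) and -0.558 with SLC25A36 (rho = -0.618). Without the 2 farthest animals these were -0.594, -0.578 and -0.556. They were -0.418, -0.257 and -0.321 in the re-analyzed animals, against -0.594, -0.603 and -0.570 in the unmarked animals, and -0.610, -0.654 and -0.632 with title digits 16, against -0.531, -0.421 and -0.398 with title digits 15.

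**Figure D4:**
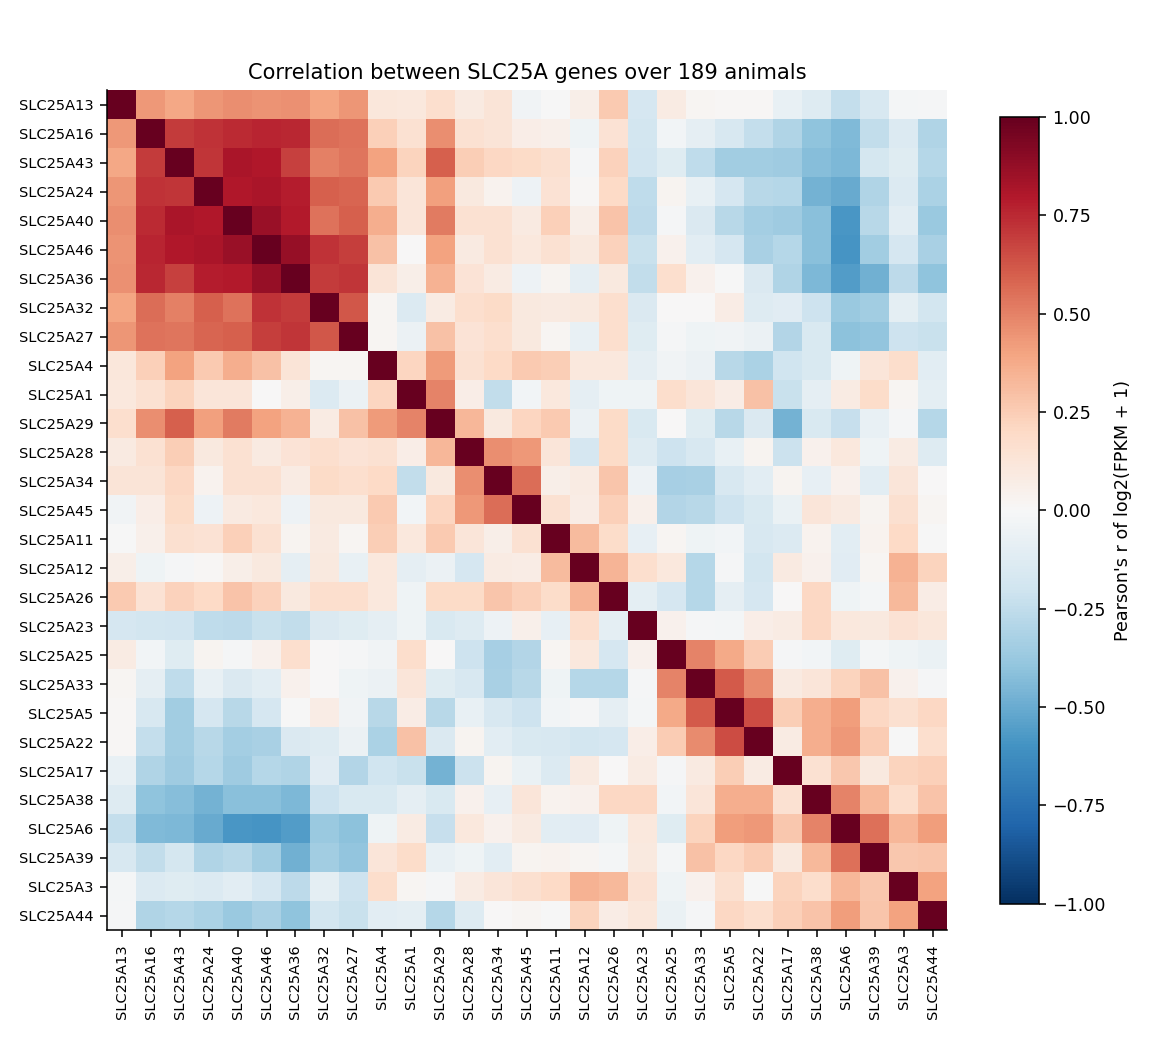
Pearson's r of log2(FPKM + 1) between 29 of the 30 tested SLC25A genes over 189 animals (red positive, blue negative), with genes ordered by average-linkage clustering. A block of genes around SLC25A46, SLC25A36 and SLC25A40 is red, up to 0.869, and its crossings with SLC25A6 are blue, down to -0.590.

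Levels of the members were also set against 7 measures of each library, in 238 relations (permutation p = 1e-05 for r and for rho and 6e-05 after adjustment for each relation given, n = 189). The difference between long and short transcripts had an r of 0.568 with SLC25A36 (rho = 0.618), 0.547 with SLC25A27 (rho = 0.563) and 0.519 with SLC25A32 (rho = 0.527), and of -0.562 with SLC25A39 (rho = -0.577) and -0.545 with SLC25A6 (rho = -0.558). The most abundant transcripts of the 8 co-varying genes were 2421 to 5784 nt long (median 4007), beside 1368 to 6281 nt (median 3170.5) for the other 26 members. The main transcript was 3100 nt long for SLC25A39 and 1505 nt for SLC25A6. The 2 animals farthest from the median changed these r to between 0.520 and 0.561, and to -0.547 and -0.544. In the order given, they were 0.618, 0.571, 0.574, -0.571 and -0.610 in unmarked animals and 0.674, 0.464, 0.254, -0.468 and -0.518 in re-analyzed animals. With title digits 16 they were 0.637, 0.619, 0.516, -0.538 and -0.565, and with title digits 15 they were 0.445, 0.434, 0.525, -0.591 and -0.506.

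The summed level of 5 fast fibre genes ran against the same 8 carriers, with r from -0.620 to -0.533. The largest terms of that sum were MYLPF, TNNT3 and TNNI2 (means of 15309, 12990 and 7508 FPKM), beside 3720 FPKM for MYH2 and 1984 FPKM for MYH4. The genes did not move as one, since MYH2 was higher (0.56) and TNNI2 lower (-0.39) in re-analyzed libraries. Single fibre genes were not set against the carriers. The r was -0.620 with SLC25A43 (rho = -0.672), -0.606 with SLC25A16 (rho = -0.577) and -0.598 with SLC25A46 (rho = -0.625). Without the 2 farthest animals these were -0.634, -0.590 and -0.607. They were -0.625, -0.595 and -0.587 in unmarked animals, and -0.590, -0.674 and -0.732 in re-analyzed animals. With title digits 16 they were -0.626, -0.620 and -0.623, and with title digits 15 -0.590, -0.552 and -0.517.

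The summed adipocyte markers had an r of 0.573 with SLC25A5 (rho = 0.519) and 0.554 with SLC25A22 (rho = 0.511). Library 39 is the highest in both genes, and without it these were 0.510 and 0.461. Without the 2 farthest animals they were 0.504 and 0.445. They were 0.458 and 0.454 in re-analyzed animals, against 0.559 and 0.539 in unmarked animals, and 0.494 and 0.473 with title digits 16, against 0.698 and 0.645 with title digits 15. The summed macrophage markers had an r of 0.565 with SLC25A38 (rho = 0.535) and 0.546 with SLC25A5 (rho = 0.561), and of -0.569 with SLC25A43 (rho = -0.578), which were 0.540, 0.547 and -0.551 without the 2 farthest animals. In the re-analyzed animals the relation of SLC25A43 to macrophage markers was -0.103, against -0.564 in the unmarked animals, while that of SLC25A5 was 0.599 in re-analyzed animals, against 0.504 in unmarked animals. With title digits 16 the values for SLC25A38, SLC25A5 and SLC25A43 were 0.587, 0.451 and -0.581, and with title digits 15 they were 0.514, 0.655 and -0.433.

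The listed transcripts of 13 members number 2 or 3, and 21 members have 1. For SLC25A12, on the minus strand of chromosome 15, the transcripts fell into separate kinds of animal. ENSSSCT00000017366 has 19 exons (2833 nt, 77896281 to 78022070), ENSSSCT00000022813 has 18 exons (2568 nt, 77896282 to 77995110), and ENSSSCT00000031044 has 17 exons (2072 nt, 77896787 to 77995171). The 18-exon form held under 10% of the gene's FPKM in 83 animals and 30% or more in 106, with 0 animals between. The limits of 10% and 30% were chosen after the values were seen.

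Both kinds of animal occurred in every set. The 18-exon form was under 10% in 11 of the 21 re-analyzed animals (52.4%), against 72 of the 168 unmarked animals (42.9%), and in 53 of 120 with title digits 16, against 30 of 69 with digits 15. The intraclass correlation of its share within title codes was 0.038. Summed SLC25A12 had a median of 17.0 FPKM (5.53 to 32.7) in the 83 animals with the low share, against 23.9 FPKM (6.24 to 43.8) in the other 106, and the ranges overlapped widely. StringTie apportions reads among overlapping transcripts by a model, and the split of 1 gene among them is less certain than its sum.

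**Figure D5:**
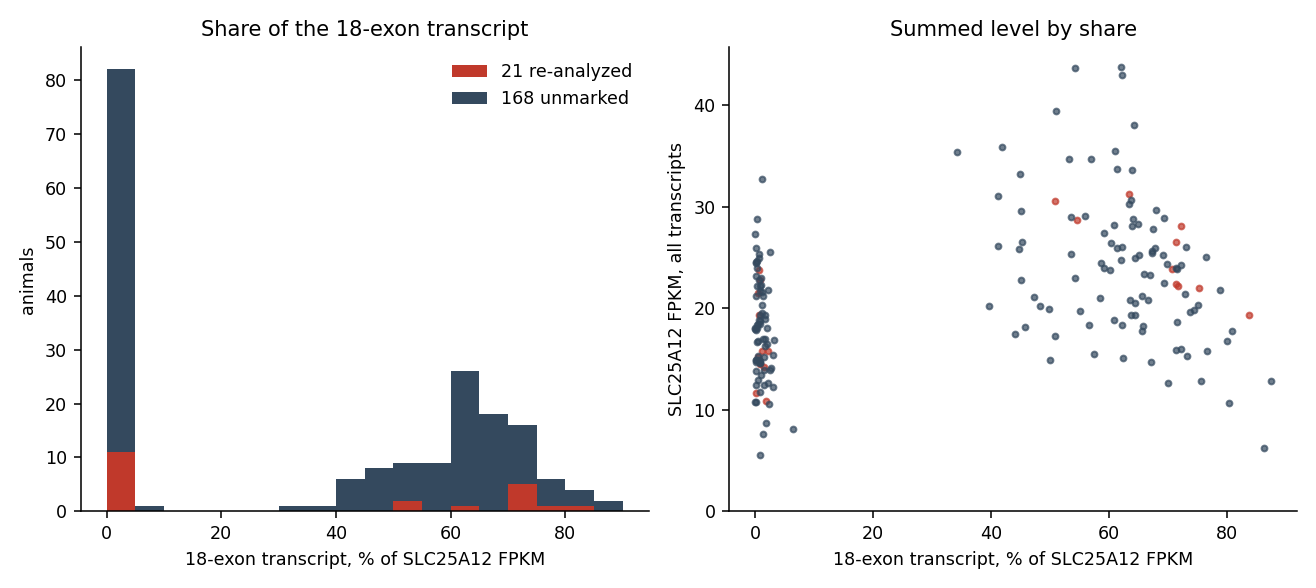
Left, number of animals by the share of SLC25A12 FPKM held by its 18-exon transcript (21 re-analyzed animals red, 168 unmarked dark, stacked). Right, summed SLC25A12 FPKM against that share, 1 dot per animal, with no animal between 10% and 30%.

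The main transcripts of other genes also had 0 animals between 10% and 30%, with few animals below that gap. These were 9 of 189 animals for SLC25A22 (ENSSSCT00000051751), 8 for SLC25A40 (ENSSSCT00000028088), and 2 each for SLC25A23 (ENSSSCT00000039188) and SLC25A29 (ENSSSCT00000002799). SLC25A3 drew 40.3% to 77.2% of its FPKM (median 65.0%) from the transcript ENSSSCT00000000970, which held over 50% in 188 of 189 animals. SLC25A4 drew a median of 77.3% (37.5% to 93.8%) from ENSSSCT00000059379, its form of 4605 nt. SLC25A39 was shared between ENSSSCT00000061128 (median 53.4%, 23.9% to 91.2%) and ENSSSCT00000030896 (median 41.1%, 7.94% to 70.0%), and SLC25A25 among 3 forms with medians of 40.1%, 38.1% and 20.4%. For SLC25A11 the form ENSSSCT00000050659 held at least 95.9% in every animal.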

How the data were processed

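Polyadenylated RNA of longissimus dorsi from 189 animals, taken 25 minutes after slaughter, was sequenced with paired ends, per the labels' protocols. HISAT2 2.0.5 and StringTie 1.3.3 with the build Sscrofa11.1 are named in the submitters' processing notes without their settings. The deposited table's header names no unit, and its values were taken as the authors' FPKM from the column layout and the similar library sums. It lists only transcripts at 0 in at most 9.52% of the animals. FPKM of a gene's transcripts were added up. Genes averaging 0.5 FPKM or more were tested on log2(FPKM + 1), 2-sided, with limma 3.58.1 in R 4.3.3 (lmFit, eBayes with trend) and Benjamini-Hochberg adjustment over all 10717 genes tested, called at 0.05. Fold changes on this scale understate the change of low genes. Values after ± are standard errors of the limma estimates, or SDs between animals where SD is written. The p-values treat animals as independent. The labels do not say which animals share a parent, and they give 2 different numbers of sows. On simulated data for the IMF slope, with independent genes, 196 of 200 changed genes of effect 0.25 were recovered among 10717 genes, with 16 false calls. The largest slope of a member was 0.12 (SLC25A34), and recovery of slopes of that size was not simulated. For the difference between long (4000 nt or more) and short (1500 nt or less) transcripts, each gene's log2 level was centred on its mean over animals. The difference is the median of these values over genes whose main transcript is long minus the median over genes whose main transcript is short. SLC25A genes were left out. The members and lists were chosen with earlier results of these data known. Genes are named as follows: every member called, up to 6 per direction with values; where none is called, the 3 of smallest p per direction; the 10 most abundant, 5 most and 3 least variable members; and the 5 highest and 3 lowest pairs of members. Correlations were permuted, although a description without p had been planned. Alternatives were other pseudocounts, filters, scalings, covariates, gene values and left-out libraries. Values of 1 member are not reported here; it is counted in totals and medians.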

Additional observations from a re-analysis of the deposited data

Results flagged for a closer look

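Among the 10 re-analyzed animals of high IMF, 7 of the 34 SLC25A genes had a highest animal whose gap to the next exceeded Dixon's critical share of the group's range. Chance flags about 1 group in 20 where values are normally distributed. FPKM need not be, the genes are not independent, and the share over all genes is not given. The count of 7 can therefore not be set against chance. Library 160 had 56.6 FPKM of SLC25A39, with the next animal at 38.6 FPKM. Library 63 had 10.5 FPKM of SLC25A28 (next 7.73) and 2.81 FPKM of SLC25A38 (next 1.75). Library 148 had 9.41 FPKM of SLC25A36 (next 6.26) and 1.42 FPKM of SLC25A47 (next 0.889). Library 17 had 1.97 FPKM of SLC25A27 (next 1.25), and library 59 had 2.56 FPKM of SLC25A33 (next 0.996).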

How the results depend on the processing

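Between re-analyzed and unmarked libraries 11 members were called, and 3 among genes averaging 5 FPKM or more, where 13 members were tested in place of 30. With the long-minus-short difference as a covariate, a choice made after seeing the data, 17 were called, and all genes called went to 5415 (3174 higher, 2241 lower); the cause was not tested. Between title digits 9 members were called, 2 among genes averaging 5 FPKM or more (13 tested) and 5 with that covariate (all genes 864), the cause of which was not tested. The other alternatives gave 10 to 12 members for the mark and 7 to 10 for the title digits. Apart from the counts given for the scalings and the length covariate, the numbers of all genes called in these 2 comparisons under alternatives are not given. The member counts there cannot be set against them. The IMF slope, its fit in unmarked libraries, the difference of slopes, the contrast of high with low IMF and the title codes called 0 members under every alternative run; leaving out each of the 21 re-analyzed animals in turn gave 0 members each time. The number of all genes called for the IMF slope went to 28 without library 39 (9 with it) and to 19 with a pseudocount of 0.1. Library 39 is not among the re-analyzed animals, so that its omission does not apply to the contrast of high with low IMF there. Of 463 single-gene values under alternatives 445 kept direction and side of the threshold, 17 lost the call and 1 changed sign: the IMF slope of SLC25A44 was 0.0019 without the 2 lowest and 2 highest IMF values. With title codes as a random block (correlation 0.021) the IMF slope called 0 members. The same block, added after seeing the data for the mark and the title digits, left 11 and 9 members called. Without read counts, the precision of low members such as SLC25A21 is unknown.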
